A study of Homo sapiens and Mus musculus with 12 samples.

Results

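Collagens, laminins, nidogens and their closest basement membrane and fibril partners were followed in cortical organoids that lost or gained NOTCH2NL. Human members were the genes whose symbol in the authors' deposited table names a collagen chain (COL, number, A, number) or a laminin chain (LAMA, LAMB or LAMC), plus NID1, NID2, HSPG2, AGRN, FN1, FBN1 and FBN2. They numbered 63 of 60675 human gene identifiers. Mouse members were the genes whose description in the authors' deposited table begins with collagen, laminin or nidogen, plus the orthologs of the other named genes, 68 of 47729 identifiers. Of these, 62 were chains of the same families and 6 were caught by their description alone: Col4a3bp, Colgalt1, Colgalt2, Cthrc1, Ccbe1 and Colq. No description was given for 17177 mouse identifiers, so a member among them would be missed. Between species 61 members were matched, with COL21A1 and LAMB4 human alone and Col6a4 mouse alone.

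The libraries were RNA-seq of cortical organoids, aggregates of pluripotent cells that differentiate toward embryonic forebrain, with 3 libraries in each of 4 groups. The human groups were WT (line code H9_WT_E2del19) and NOTCH2NL knockout, KO (line code H9_KO_E5del42), made by CRISPR/Cas9 in H9, an established human embryonic stem cell line, and harvested at week 4, on day 28, as pools of 5 to 10 organoids. The mouse groups were 46C embryonic stem cells stably carrying an empty vector, EV, or a NOTCH2NL-Sh_T197I cDNA, N2NL, harvested on day 6 as pools of 16 organoids. NOTCH2NL denotes partial duplicates of the receptor gene NOTCH2 found in the human genome, and the series asks how their loss or gain alters early cortical development. Each human genotype carries 1 line code, which the labels do not explain, and each mouse vector 1 line code, so genotype or vector cannot be told apart from line. The H9 cells were kept on a layer of mouse embryonic fibroblasts before differentiation, and all human organoids received the same inhibitors (SB431542, Dorsomorphin, IWR-1-Endo and Cyclopamine). No source used here gives the promoter of the mouse vectors. Whether a group's pools were grown as separate cultures is not stated, so p-values measure the spread between pools, which may be technical.

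A basement membrane is a thin sheet of matrix under epithelia, including the outer surface of the embryonic neural tube, to which radial glia attach. Laminins assemble from 1 alpha, 1 beta and 1 gamma chain, type IV collagen from 3 alpha chains, and nidogens and perlecan (HSPG2) join the laminin and collagen networks. Fibrillar collagens build the fibrils of connective tissue, fibril-associated collagens decorate them, and type VI collagen forms beaded microfilaments beside cells. Fibronectin and fibrillins form fibres of their own, which also store growth factors.

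Total counts ran from 15381409 to 16382938 in the human libraries and from 16781742 to 20960391 in the mouse libraries. NOTCH2NL, the targeted gene, had raw counts of 4 (WT 1), 5 (WT 2) and 3 (WT 3), and no count in any KO library. Reads that fit several near-identical copies make so low a count uncertain. In the authors' deposited table its normalized values in mouse were 0 in every EV library and 801, 709 and 740 in N2NL 1 to 3. Neural progenitor markers (11, among them VIM, SOX2, PAX6 and SOX1) summed to 3806 to 4877 CPM (counts scaled to a common library size with TMM factors) in human and 2000 to 2304 CPM in mouse. The largest part was VIM, at 2088 to 3070 CPM in human, and Vim, at 965 to 1177 CPM in mouse. SOX2 stood at 216 to 292 CPM in human and Sox2 at 219 to 281 CPM in mouse. No single human library held most of the extremes: each was the lowest for 4 (WT 2 and KO 2) to 13 (WT 1) of the 47 tested members and the highest for 3 (WT 3) to 12 (WT 2).

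All members together took 0.171% to 0.216% of human counts and 0.388% to 0.435% of mouse counts. In human the sum was 2175, 2100 and 2044 CPM in WT 1 to 3 and 1938, 2058 and 1708 CPM in KO 1 to 3, with KO 2 above WT 3. In mouse it was 4042, 3851 and 4166 CPM in EV 1 to 3 and 4374, 4309 and 4320 CPM in N2NL 1 to 3, so every N2NL library lay above every EV library. Fn1, the most counted mouse member, weighs most in that sum, and its own groups overlapped.

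In the human organoids, 4 members fell in KO against WT and none was called higher. They were both tested type VI collagen chains, COL6A1 and COL6A2, the proteoglycan agrin (AGRN) and the type IX collagen chain COL9A2. Of the 63 members, 47 had enough counts to test and 43 of those were not called by edgeR's quasi-likelihood test at a Benjamini-Hochberg adjusted p under 0.05 over all genes. The 4 calls are 8.51% of the tested members, beside 5.5% of all 16956 tested genes called in either direction, 2.31% called higher and 3.19% called lower. DESeq2, run as an alternative, called 7 members lower, these 4 with COL3A1, COL9A3 and FBN2, and 3 higher, COL22A1, COL4A3 and COL4A4. The share of all genes called by DESeq2 is not given here. Its 10 member calls are therefore not a result about the members. At an unadjusted p under 0.05 there were 15 of 47 members, beside 3872 of all tested genes. Log2 fold changes lay above 0 for 22 members and below 0 for 25, with a median of -0.04, beside 0.00 for all genes.

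COL6A1 (ENSG00000142156), the alpha 1 chain of type VI collagen, lies on chromosome 21 at 45981737 to 46005050 (GRCh38, plus strand). Its level was 182, 266 and 246 CPM in WT 1 to 3 and 140.2, 150.2 and 144 CPM in KO 1 to 3. All KO libraries lay below all WT libraries, and the KO libraries were close together while WT 1 was the lowest WT library. The log2 fold change was -0.68 ± 0.13 (approximate SE, n = 3 libraries per group, edgeR adjusted p = 0.0195).

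COL6A2 (ENSG00000142173), the alpha 2 chain that assembles with COL6A1, lies 93 kb downstream on the same strand, at 46098097 to 46132849. It stood at 17.6, 27.9 and 26.3 CPM in WT 1 to 3 and 12.03, 15.25 and 12.05 CPM in KO 1 to 3. Its libraries were ordered as for COL6A1 at the top and bottom of WT, again without overlap between the groups. The log2 fold change was -0.87 ± 0.19 (edgeR adjusted p = 0.028). COL6A1 had 9.37 to 11.9 times the counts of COL6A2 in every human library, and their exons cover 5343 and 5386 bases. The alpha 3 chain that completes the usual type VI molecule, COL6A3, was too low to test, with 27, 5 and 7 raw counts in WT 1 to 3 and 0, 4 and 2 in KO 1 to 3. Without a filter on low counts COL6A3 was called lower (edgeR adjusted p = 0.00857), in 1 of 2 alternatives that held it. Its adjusted p in the authors' deposited table was 0.151.

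AGRN (ENSG00000188157) encodes agrin, a heparan sulfate proteoglycan of basement membranes known for clustering acetylcholine receptors at the neuromuscular junction. It lies on chromosome 1 at 1020123 to 1056118 (plus strand). Its level was 178, 223 and 191 CPM in WT 1 to 3 and 141, 138 and 124 CPM in KO 1 to 3, a narrow range in each group with no overlap. The log2 fold change was -0.56 ± 0.10 (edgeR adjusted p = 0.0134). The other large basement membrane proteoglycan, perlecan (HSPG2), stood at 38.7, 37.7 and 38.8 CPM in WT and 32.6, 35.8 and 24.8 CPM in KO. Its groups did not overlap either, but it was not called (-0.31 ± 0.14, edgeR adjusted p = 0.209).

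COL9A2 (ENSG00000049089), a chain of the fibril-associated type IX collagen of cartilage and vitreous, lies on chromosome 1 at 40300487 to 40317813 (minus strand). It stood at 8.62, 14.7 and 13.8 CPM in WT 1 to 3 and 5.27, 7.05 and 5.93 CPM in KO 1 to 3. The groups did not overlap, and WT 1 was again nearest to the KO libraries. The log2 fold change was -1.02 ± 0.23 (edgeR adjusted p = 0.0302). Its partner COL9A3 stood at 9.72, 4.63 and 8.03 CPM in WT and 2.73, 4.26 and 1.04 CPM in KO, and was not called (-1.48 ± 0.48, edgeR adjusted p = 0.121). It passed with DESeq2 and without a filter on low counts, with an adjusted p of 2.83e-06 to 0.298 over 11 alternatives, and its adjusted p in the authors' deposited table was 0.0107. The third partner, COL9A1, overlapped, at 17.4 to 20.1 CPM in WT and 18.0 to 21.8 CPM in KO (0.08 ± 0.13, edgeR adjusted p = 0.762).

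**Figure D1:**
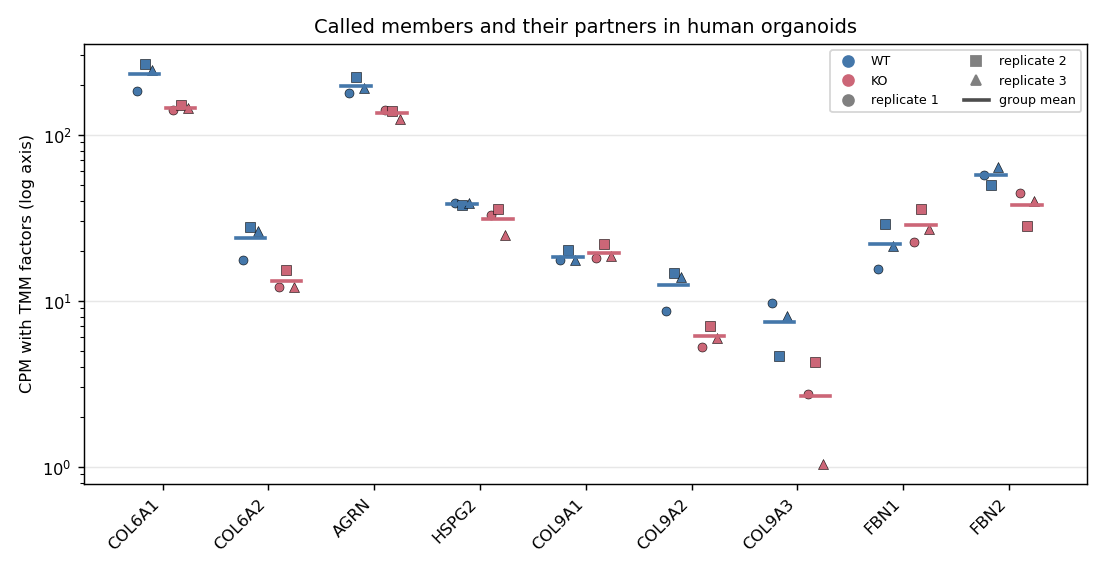
Level (CPM with TMM factors, log axis) of the 4 called members and of related members in each human library. Points are libraries, with shapes for replicates 1 to 3, and lines are means of 3 libraries; COL6A1, COL6A2, AGRN and COL9A2 have every KO library below every WT library, while COL9A1 and FBN1 overlap.

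These 4 calls changed when single libraries were left out, while the folds kept their direction. Over 11 alternative fits, the log2 fold change ranged from -0.82 to -0.56 for COL6A1, -0.62 to -0.45 for AGRN, -1.05 to -0.73 for COL6A2 and -1.23 to -0.87 for COL9A2, and the adjusted p reached at most 0.109, 0.0647, 0.139 and 0.142. With 1 library left out at a time, AGRN was called in 4 of 6 fits, COL6A2 in 2, and COL6A1 and COL9A2 in 1 each. No member was called without WT 3 or without KO 1. Without KO 3 only AGRN was called, and without KO 2 only AGRN and COL6A2. Without WT 2, 3 members were called, AGRN lower and COL4A4 and COL5A3 higher. Without WT 1, 5 were called lower, these 4 and COL5A2. Calls over all human genes also moved widely in these fits, which have 2 libraries in 1 group. The changes are therefore not particular to the members.

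The genes beside these 4 members on the chromosome were counted too. Within 500 kb, 14 other tested genes lay near COL6A1, 13 near COL6A2, 19 near COL9A2 and 47 near AGRN. In each window 1 other gene was lower and none higher, and for the type VI pair that gene was its partner. Over all tested genes 3.19% were lower. The median log2 fold change of the neighbours was 0.04, 0.05, -0.1 and -0.05 in that order.

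The RefSeq bases (GRCh38.p14) just before the starts of COL6A2 and COL9A2 are given because these genes were both lower. The RefSeq starts differ from the GENCODE release 29 coordinates above: the COL9A2 stretch lies inside the GENCODE gene, and the COL6A2 stretch runs past its GENCODE start. The tables used here hold the region of 47 of the 63 human members, without COL6A1 and AGRN. Capitals mark matches on either strand to a CCAAT box (CCAAT or ATTGG), a GC box (GGGCGG or CCGCCC) or a TATA box (TATAAA or TTTATA). Overlapping matches run together.
COL6A2, chr21:46097862-46098111, plus strand: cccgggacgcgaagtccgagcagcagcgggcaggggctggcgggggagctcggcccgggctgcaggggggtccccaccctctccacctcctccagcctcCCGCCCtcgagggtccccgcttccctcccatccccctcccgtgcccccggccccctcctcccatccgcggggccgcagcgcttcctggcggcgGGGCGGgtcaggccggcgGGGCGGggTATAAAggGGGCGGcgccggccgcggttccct
COL9A2, chr1:40317287-40317536, minus strand: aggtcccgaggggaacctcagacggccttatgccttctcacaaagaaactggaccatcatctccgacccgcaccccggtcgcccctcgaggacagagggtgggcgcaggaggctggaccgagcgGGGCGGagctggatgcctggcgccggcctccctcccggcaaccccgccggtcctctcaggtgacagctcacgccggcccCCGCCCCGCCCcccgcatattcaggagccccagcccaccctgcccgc
The COL6A2 region is 79.6% G and C and holds 4 GC box matches and 1 TATA box match. The COL9A2 region is 71.6% G and C and holds 3 GC box matches and no TATA box match. Of 35116 RefSeq windows of 250 bases, 42.6% hold a GC box match, 10.7% a TATA box match and 32.0% a CCAAT box match, and the median G and C content is 58.0%. The matches describe letters and are not measured binding sites.

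Of 24 basement membrane members, 21 were tested in human, AGRN was lower and the other 20 were not called. That is 4.76% called, near the 5.5% of all tested genes, with 11 folds above 0 and 10 below and a median of 0.02. Per kilobase of exon, the 5 members with the highest mean level over the 6 libraries were COL6A1 at 35.2 CPM per kb, COL4A6 at 34.1, COL4A5 at 26.5, AGRN at 15.4 and LAMB2 at 10.8. COL4A6, COL4A5 and LAMB2 among these were not called. The lengths are the union of all annotated exons in GENCODE release 29, so a gene with long rare exons has its level understated.

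**Figure D2:**
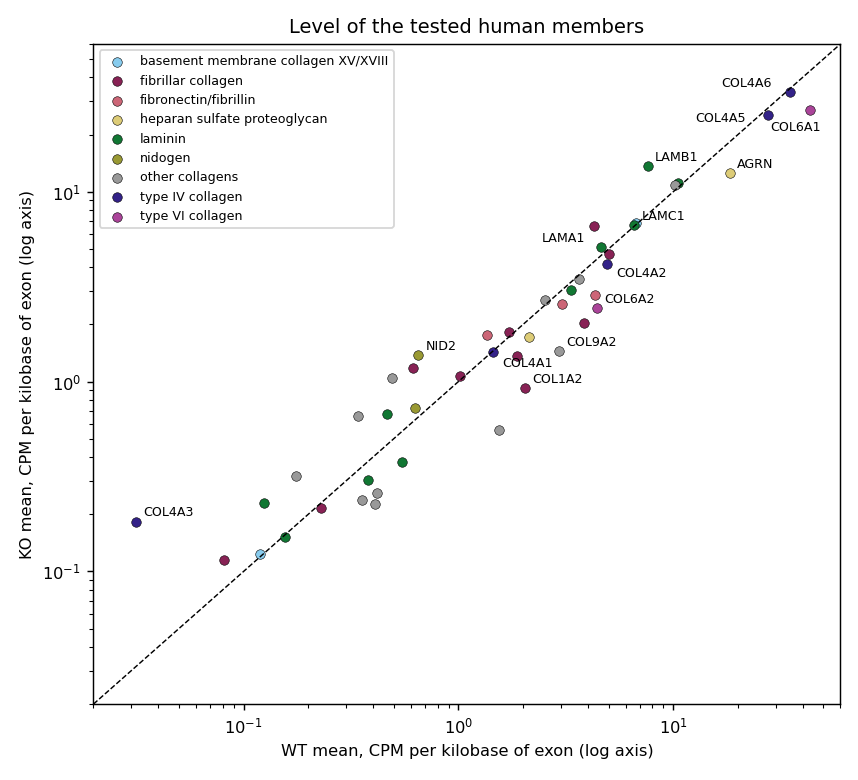
Mean level of each of the 47 tested human members in KO against WT (CPM per kilobase of exon, log axes, means of 3 libraries), coloured by family. The dashed line marks equal levels; most members lie near it, COL6A1, COL6A2, AGRN and COL9A2 lie below it, and COL4A3, at very low level, lies farthest above it.

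Most type IV collagen counts in human came from the X-linked chains, alpha 5 and alpha 6. COL4A5 stood at 414, 287 and 280.0 CPM in WT 1 to 3 and 323, 332 and 252 CPM in KO 1 to 3. COL4A6 stood at 427, 253 and 293 CPM in WT and 327, 366 and 236 CPM in KO. WT 1 was the highest library and KO 3 the lowest for both, and the groups overlapped. Neither gene was called (-0.11 ± 0.17 and -0.07 ± 0.24, edgeR adjusted p = 0.749 and 0.901). The count of COL4A5 was 0.908 to 1.13 times that of COL4A6 in all 6 libraries. Together they gave 81.9% to 88.6% of the type IV counts in every human library, beside 14.1% to 16.1% in every mouse library.

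The chains COL4A1 and COL4A2, which form the most widespread type IV molecule, had lower levels per kilobase, at 1.44 and 4.54 CPM per kb over the 6 libraries. COL4A2 stood at 81.1 to 108 CPM in WT and 68.6 to 90.4 CPM in KO (-0.24 ± 0.13, edgeR adjusted p = 0.313). COL4A1 stood at 17.5 to 26.6 CPM in WT and 18.0 to 23.1 CPM in KO (-0.03 ± 0.17, edgeR adjusted p = 0.95). The count of COL4A1 was 0.185 to 0.265 times that of COL4A2 in human and 1.03 to 1.11 times in mouse. These ratios are of raw counts, not per length, and species, stage and protocol cannot be told apart in them. In GENCODE release 29 the start regions of COL4A1 and COL4A2 overlap on opposite strands. No source used here says whether the counting used strand, so reads there are uncertain.

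The remaining type IV pair, COL4A3 and COL4A4, was close to the detection limit. COL4A3 had 3, 11 and 0 raw counts in WT 1 to 3 and 8, 34 and 38 in KO 1 to 3. Its log2 fold change, the largest of any tested member, was 2.47 ± 0.86 and was not called (edgeR adjusted p = 0.14). COL4A4, too low to test, had 1, 5 and 1 counts in WT and 9, 15 and 23 in KO, so every KO library lay above every WT library. Both genes passed an adjusted p of 0.05 with DESeq2 and without a filter on low counts, and in the authors' deposited table their adjusted p was 0.0609 and 0.0512. COL4A4 also passed without WT 2.

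The 6 type IV genes are arranged as 3 pairs that start back to back, with 126 bases between the RefSeq starts of COL4A1 and COL4A2, 418 between COL4A4 and COL4A3 and 379 between COL4A6 and COL4A5. The segment between COL4A1 and COL4A2, and the 250 bases before COL4A5, are shown because the first pair differed in count and the second ran level. Capitals mark the same motifs.
COL4A1 and COL4A2, between the starts, chr13:110307158-110307283, plus strand: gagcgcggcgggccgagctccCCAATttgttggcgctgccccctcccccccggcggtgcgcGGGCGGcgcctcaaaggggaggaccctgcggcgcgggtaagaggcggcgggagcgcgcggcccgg
COL4A5, chrX:108439588-108439837, plus strand: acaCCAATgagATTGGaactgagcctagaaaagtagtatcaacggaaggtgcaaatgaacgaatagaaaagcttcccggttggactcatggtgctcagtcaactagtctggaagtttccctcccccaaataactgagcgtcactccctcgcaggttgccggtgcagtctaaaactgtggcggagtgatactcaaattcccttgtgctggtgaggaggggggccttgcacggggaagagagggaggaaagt
The first segment is 80.2% G and C and holds 1 CCAAT box and 1 GC box match, which 21.1% and 34.6% of 126-base windows hold. The COL4A5 region is 51.2% G and C and holds 2 CCAAT box matches and no GC box match.

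Among laminins, 10 of 12 chains were tested and none was called in human (none at an unadjusted p under 0.05 either), with a median log2 fold change of 0.04. The gamma 1 chain LAMC1, part of most laminins, stood at 54.3, 54.8 and 57.2 CPM in WT and 57.9, 57.8 and 52.6 CPM in KO (0.02 ± 0.09). LAMA1, the alpha chain of laminin-111 of early embryonic basement membranes, stood at 59.8 to 88.1 CPM in WT and 66.3 to 92.0 CPM in KO and gave 46.4% to 65.6% of alpha chain counts. LAMA5, the alpha chain of later basement membranes, stood at 41.2 to 54.7 CPM in WT and 37.6 to 53.8 CPM in KO. LAMA2, LAMA3, LAMA4 and LAMB3 were below 10 CPM in every library.

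The beta 1 chain LAMB1 and the linker nidogen 2 (NID2) spread widely within each genotype. LAMB1 stood at 33.4, 84.2 and 68.5 CPM in WT 1 to 3 and 101, 157 and 75.1 CPM in KO 1 to 3 (0.84 ± 0.45, edgeR adjusted p = 0.342). NID2 stood at 0.583, 6.52 and 5.37 CPM in WT and 5.20, 11.6 and 9.61 CPM in KO (1.08 ± 0.76, edgeR adjusted p = 0.459). WT 1 was the lowest and KO 2 the highest library for both, and the groups overlapped for both. The related chains were steady, with LAMB2 at 64.7 to 80.1 CPM in WT and 72.0 to 84.1 CPM in KO, and NID1 at 3.05 to 4.41 CPM in WT and 4.10 to 4.55 CPM in KO.

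Several marker lists had the same lowest and highest library as LAMB1 and NID2: choroid plexus, the epithelium that makes cerebrospinal fluid, mesenchyme and meninges, and endothelium. The 5 choroid plexus markers summed to 257, 2137 and 1109 CPM in WT 1 to 3 and 1356, 4182 and 3493 CPM in KO 1 to 3, nearly all of it from the transthyretin gene TTR (252 to 2108 CPM in WT, 1320 to 4116 CPM in KO). None of its 4 tested markers was called. The 7 retina and pigment epithelium markers summed to 22.8, 77.0 and 49.4 CPM in WT and 67.2, 136 and 143.8 CPM in KO, lowest in WT 1 and highest in KO 3, and of 6 tested TYRP1 was higher and PMEL lower. The part of these cell types in the LAMB1 and NID2 values was not tested. Fewer cells of a type and less RNA per cell cannot be told apart in these pooled organoids.

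**Figure D3:**
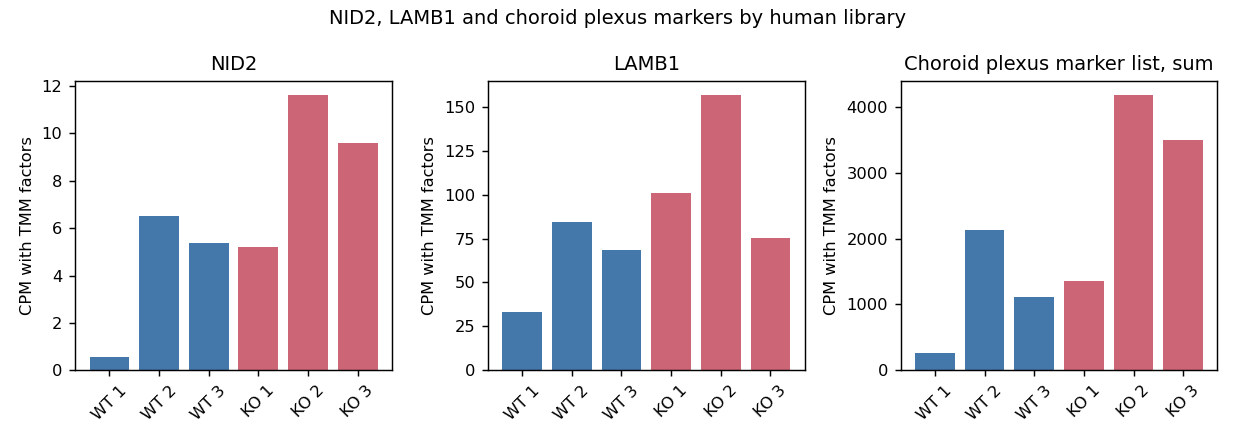
Level (CPM with TMM factors) of NID2, of LAMB1 and of the summed choroid plexus marker list in each human library, as bars from 0, blue for WT and red for KO. WT 1 is the lowest library and KO 2 the highest in all 3 panels.

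No fibrillar collagen was called in human. Of 11, 10 were tested and 2 had an unadjusted p under 0.05, with 5 folds on each side of 0. COL2A1, the main cartilage collagen, stood at 17.04, 34.9 and 33.3 CPM in WT and 37.1, 41.9 and 53.0 CPM in KO, with all KO libraries above all WT libraries (0.63 ± 0.28, edgeR adjusted p = 0.247). COL5A3, a minor type V chain, likewise did not overlap, at 2.07, 6.40 and 3.98 CPM in WT and 8.26, 7.31 and 8.26 CPM in KO (0.93 ± 0.34, edgeR adjusted p = 0.144). Both passed without a filter on low counts, and COL5A3 also without WT 2.

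The type I chain COL1A2 stood at 14.6, 28.5 and 25.5 CPM in WT and 5.33, 10.4 and 15.2 CPM in KO, with KO 3 above WT 1 (-1.15 ± 0.42, edgeR adjusted p = 0.179). Its usual partner COL1A1 was below 5 CPM in every library and showed no such gap (-0.09 ± 0.49). COL1A2 passed in 1 of 11 alternatives, the replicate block (edgeR adjusted p = 0.0118). COL5A1, which helps start fibrils, stood at 65.2, 31.6 and 32.6 CPM in WT and 21.1, 33.4 and 13.8 CPM in KO (-0.92 ± 0.45, edgeR adjusted p = 0.297). WT 1 was the high library there. COL11A1 stood at 34.4 to 52.7 CPM in WT and 36.0 to 55.8 CPM in KO. COL3A1, common in soft connective tissue, was too low to test, with 61, 7 and 14 raw counts in WT and 3, 2 and 7 in KO. It was called lower with DESeq2 and without a filter on low counts, with an adjusted p of 2.06e-05 to 0.329 over 7 alternatives. Its adjusted p in the authors' deposited table was 0.0353.

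Fibronectin (FN1) stood at 43.6, 58.9 and 55.7 CPM in WT and 44.5, 30.4 and 58.6 CPM in KO, with overlapping groups (-0.25 ± 0.24, edgeR adjusted p = 0.597). Fibrillin 2 (FBN2), the fibrillin of embryonic microfibrils, stood at 57.4, 50.0 and 64.1 CPM in WT and 44.5, 28.2 and 40.0 CPM in KO. Its groups did not overlap and its adjusted p was just above the threshold (-0.61 ± 0.17, edgeR adjusted p = 0.0737). FBN2 passed with DESeq2, without a filter on low counts and with a replicate block, with an adjusted p of 1.72e-05 to 0.23 over 11 alternatives. Its adjusted p in the authors' deposited table was 0.0137. Fibrillin 1 (FBN1) stood at 15.5 to 28.8 CPM in WT and 22.5 to 35.5 CPM in KO (0.38 ± 0.25, edgeR adjusted p = 0.416).

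Of 10 fibril-associated collagens, 7 were tested, COL9A2 was lower and none was called higher. In this family all but COL9A1 had non-overlapping groups: COL9A2, COL9A3, COL12A1 and COL16A1 wholly below WT and COL21A1 and COL22A1 wholly above. The last 4 of these are named after their values were seen. COL22A1, a collagen of tissue junctions, stood at 2.20, 5.12 and 4.18 CPM in WT and 6.31, 8.64 and 9.54 CPM in KO (1.09 ± 0.30, edgeR adjusted p = 0.0649). It passed with DESeq2, without a filter on low counts and with a replicate block, with an adjusted p of 0.000314 to 0.187 over 11 alternatives. Its adjusted p in the authors' deposited table was 0.0127. Over all members 4 lay wholly above and 9 wholly below, 27.7% of those tested, beside 28.8% of all tested genes (14.1% above and 14.8% below).

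Markers of connective tissue did not move as 1 group. The 13 mesenchyme and meninges markers summed to 17.6 to 25.6 CPM in WT and 32.2 to 51.9 CPM in KO. Of its 5 tested markers PDGFRB was higher and LUM lower, and OGN was at 0 in every library. Endothelial markers summed to 11.2 to 16.5 CPM in WT and 14.3 to 17.7 CPM in KO, with PECAM1 and CDH5 below 0.3 CPM throughout. Most of that sum was CLDN5 (2.98 to 8.53 CPM in WT, 5.98 to 8.14 CPM in KO) and EGFL7 (3.05 to 6.55 CPM in WT, 2.14 to 6.48 CPM in KO). None of its 4 tested markers was called. The cartilage genes ACAN, MATN1, MATN4 and HAPLN1 were below 1 CPM in every library. SOX9, which neural progenitors also express, stood at 91.6 to 101 CPM in WT and 93.2 to 109 CPM in KO. The part of these cell types in the type VI, type IX and type I values was not tested.

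Genes that make, bind or remodel matrix were followed as a list of 105. In human 94 were tested, 2 were higher and 5 lower in KO, 7.45% beside 5.5% of all tested genes, with a median log2 fold change of -0.06. The higher genes were P3H2, a prolyl hydroxylase that modifies collagen (1.15 ± 0.25, edgeR adjusted p = 0.0284), and ITGA10, a collagen-binding integrin chain (1.78 ± 0.46, edgeR adjusted p = 0.0496). P3H2 stood at 2.85, 4.27 and 2.85 CPM in WT and 5.92, 9.02 and 7.22 CPM in KO. ITGA10 was low, with 8, 21 and 8 raw counts in WT 1 to 3 and 47, 24 and 58 in KO 1 to 3.

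The lower genes had several kinds of role. ADAMTS2, which cuts the amino end of fibrillar procollagens, stood at 21.5, 13.2 and 17.2 CPM in WT and 7.93, 6.99 and 6.61 CPM in KO (-1.27 ± 0.20, edgeR adjusted p = 0.00621). ITGA5, the alpha chain of the main fibronectin receptor, stood at 13.1, 23.6 and 21.5 CPM in WT and 6.89, 8.52 and 11.1 CPM in KO (-1.13 ± 0.25, edgeR adjusted p = 0.0354). The matrix glycoprotein fibulin 2 (FBLN2) stood at 4.47, 6.82 and 5.57 CPM in WT and 1.56, 1.65 and 1.29 CPM in KO (-1.90 ± 0.27, edgeR adjusted p = 0.00407). The brain proteoglycan neurocan (NCAN) and the cross-linking enzyme TGM2 were the other lower genes (-0.32 ± 0.08 and -2.54 ± 0.54, edgeR adjusted p = 0.042 and 0.0257). NCAN stood at 315 to 339 CPM in WT and 251 to 269 CPM in KO. TGM2 was low, with 24, 31 and 16 raw counts in WT 1 to 3 and 4, 1 and 7 in KO 1 to 3.

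In the mouse organoids no member was called. Of 68 members, 60 were tested, and 6 had an unadjusted p under 0.05, beside 1242 of 16682 tested genes. Over all genes edgeR called 2, or 0.012%, and DESeq2 called no member among the 27 to which it gave an adjusted p. The log2 fold changes lay above 0 for 43 members and below 0 for 17, with a median of 0.10 beside -0.01 for all genes. Members wholly above EV numbered 7 and wholly below 1, 13.3% of those tested beside 12.7% of all tested genes (7.39% above and 5.31% below).

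Nidogen 2 (Nid2), which links laminin and type IV collagen networks, had the smallest p among mouse members. It stood at 112, 125 and 135 CPM in EV 1 to 3 and 149.9, 160.4 and 154 CPM in N2NL 1 to 3. Every N2NL library lay above every EV library, by a log2 fold change of 0.32 ± 0.08 (edgeR adjusted p = 0.259). It passed only when genes with low counts were kept (edgeR adjusted p = 0.0148), one of 11 alternatives, whose largest adjusted p was 1. In the authors' deposited table its adjusted p was 0.011. Nidogen 1 (Nid1) overlapped, at 238, 186 and 176 CPM in EV and 229, 174 and 161 CPM in N2NL (-0.09 ± 0.16).

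The most counted mouse members were Fn1, Agrn, Hspg2, Col4a1 and Col4a2, in CPM not corrected for length. Fn1 stood at 729, 623 and 606 CPM in EV and 816, 740 and 718 CPM in N2NL, with EV 1 above N2NL 3 (0.22 ± 0.09, edgeR adjusted p = 0.619). Agrn stood at 253, 259 and 305 CPM in EV and 290, 322 and 304 CPM in N2NL, with overlap (0.17 ± 0.08, edgeR adjusted p = 0.696). Hspg2 stood at 237 to 276 CPM in EV and 273 to 279 CPM in N2NL. Col4a1 and Col4a2 stood at 214 to 270 CPM in EV and 229 to 271 CPM in N2NL.

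All 11 mouse laminin chains were tested, with folds from -0.35 to 0.28. Lamc1 stood at 176 to 195 CPM in EV and 180 to 199 CPM in N2NL. Among alpha chains Lama1 gave 26.2% to 35.9% of counts and Lama5 54.9% to 66.1%, beside 27.1% to 42.4% for LAMA5 in human. Gene length, species, stage and protocol cannot be told apart in that difference.

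Fibrillar and type VI chains were also counted in mouse. Col3a1, too low to test in human, stood at 206 to 217 CPM in EV and 211 to 229 CPM in N2NL. Col2a1 stood at 115 to 149 CPM in EV and 139 to 161 CPM in N2NL. Col6a1 and Col6a2 were low, at 3.86 to 5.53 and 4.67 to 5.48 CPM over the 6 libraries, with folds of 0.11 ± 0.20 and -0.12 ± 0.16.

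Col9a2 stood at 10.7, 8.43 and 9.34 CPM in EV and 11.96, 12.07 and 11.66 CPM in N2NL, without overlap (0.33 ± 0.13, edgeR adjusted p = 0.616). Col1a2 was without overlap too, at 27.4, 23.4 and 27.7 CPM in EV and 35.0, 28.1 and 29.8 CPM in N2NL (0.25 ± 0.11, edgeR adjusted p = 0.658). The largest folds belonged to members at about 1 CPM or less: Col6a4 (-0.87 ± 0.45), Colq (0.84 ± 0.53) and Col17a1 (0.49 ± 0.28), none of them called.

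**Figure D4:**
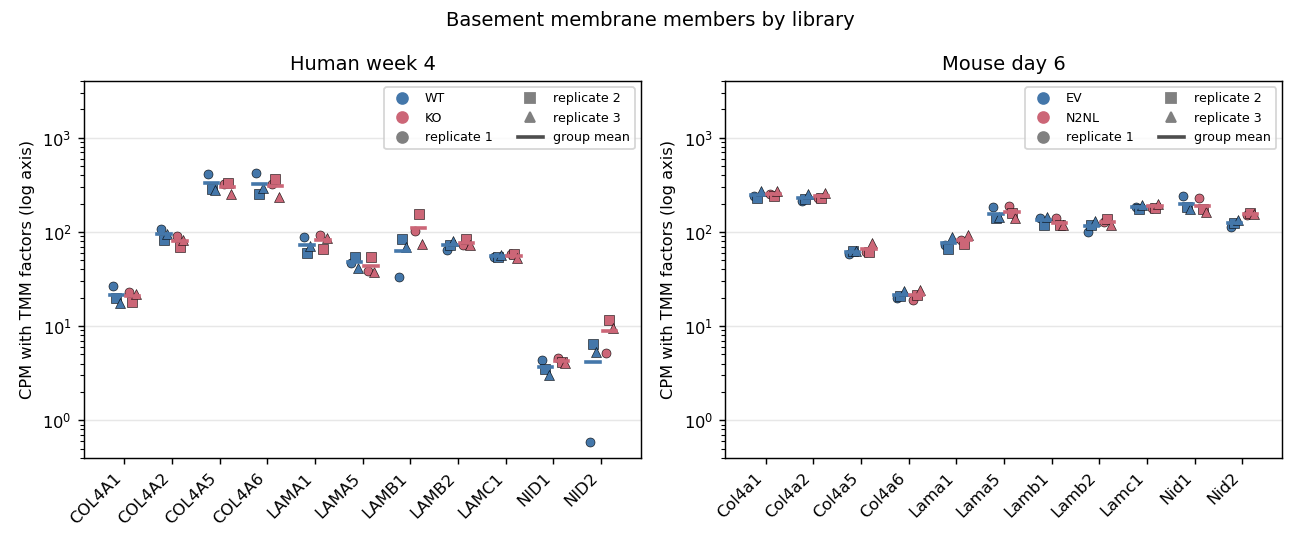
Level (CPM with TMM factors, log axis, not corrected for gene length) of type IV collagen, laminin and nidogen members in each human (left) and mouse (right) library. Points are libraries, with shapes for replicates, and lines are group means of 3; COL4A5 and COL4A6 lie above COL4A1 and COL4A2 in human and below them in mouse, and NID2 in WT 1 lies below every other human library.

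The mouse matrix list had 98 of 105 genes tested and none called by edgeR, nor by DESeq2 among those to which it gave an adjusted p. At an unadjusted edgeR p under 0.05 there were 16, or 16.3%, beside 7.45% of all tested genes. The median log2 fold change was 0.02. Mesenchyme and meninges markers summed to 258 to 261 CPM in EV and 271 to 290 CPM in N2NL, and cartilage markers to 64.0 to 72.9 CPM in EV and 82.4 to 89.6 CPM in N2NL. Both sums lay wholly above EV, and none of their tested markers was called. The cartilage sum was mostly Sox9, which neural progenitors also express (56.8 to 66.9 CPM in EV, 75.4 to 84.2 CPM in N2NL). Hapln1 overlapped, at 4.35 to 6.08 CPM in EV and 3.94 to 5.68 CPM in N2NL, and the other 4 cartilage markers were below 1 CPM. Endothelial markers summed to 340 to 425 CPM in EV and 279 to 401 CPM in N2NL, mostly from Cdh5. Pluripotency markers summed to 444 to 487 CPM in EV and 481 to 541 CPM in N2NL. Parietal and visceral endoderm markers summed to 70.65 to 76.13 CPM in EV and 67.7 to 74.32 CPM in N2NL. No tested marker of these lists was called. The part of these cell types in the mouse values was not tested.

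The members called lower in the knockout had these values where NOTCH2NL was added: the log2 fold change was -0.56 for AGRN in human and 0.17 for Agrn in mouse, -1.02 for COL9A2 and 0.33 for Col9a2, -0.68 for COL6A1 and 0.11 for Col6a1, and -0.87 for COL6A2 and -0.12 for Col6a2. None of the mouse values was called. Of 61 matched members, 44 were tested in both species. Of the 24 below 0 in KO, 19 lay above 0 in N2NL, and of the 20 above 0 in KO, 16 did. Most members lay above 0 in N2NL on either side of the knockout fold, and the difference between the species' effects was not tested.

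**Figure D5:**
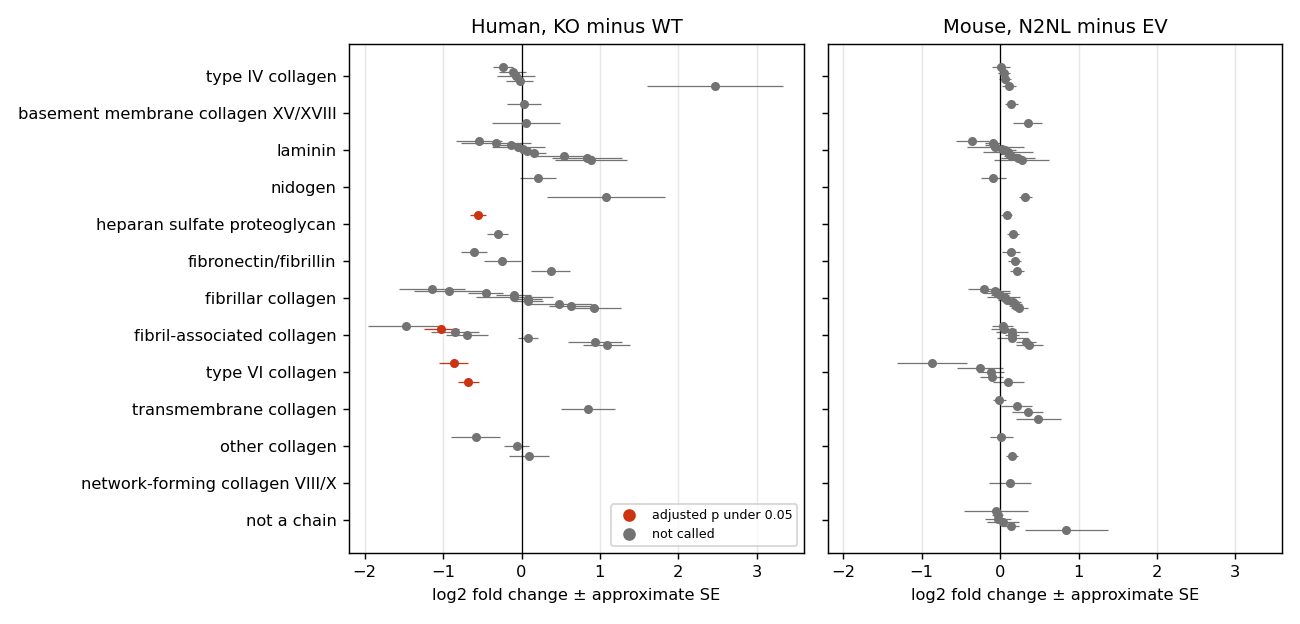
Log2 fold change with its approximate SE for each tested member, by family, for KO minus WT in human (left, 47 members) and N2NL minus EV in mouse (right, 60 members). Red points passed an adjusted p of 0.05: 4 in human, all below 0, and none in mouse.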

How the data were processed

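The authors deposited raw read counts per gene for 12 libraries, which are the basis of every level and test here. Per the file headers, their comparison tables give each library's normalized value (treated as a score), log2 fold changes or a test statistic, and p-values with adjusted p-values; single values from them are named as theirs. In the human table the deposited normalized columns labelled 1 and 3 match the raw counts labelled 3 and 1 in each group, so replicate numbers are those of the raw counts. HTSeq 0.6.1p1, STAR 2.4.0 and Bowtie2 2.3.3.1 appear, with Trimmomatic 0.36 and DESeq2 2.11.39, in the submitters' processing notes, which list the builds GRCh38 and GRCm38 and give no role for each. Per the labels' protocols, polyadenylated RNA was made into strand-specific Ion libraries.

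The test in both species was edgeR 4.0.16 (R 4.3.3): filterByExpr, TMM factors and the robust quasi-likelihood F test, KO against WT and N2NL against EV, with Benjamini-Hochberg adjustment over all tested genes. The ± of a fold is an approximate SE, fold over root F. With 3 libraries a group, exact permutation could reach no p under 0.1 and was not used. The fitting was tested on simulated counts. Alternatives were library sizes alone, DESeq2 1.42.0, no filter, a mean of at least 1 CPM, leaving out each library, and a replicate block. Members, lists and markers were chosen with earlier results of these data known. Named were called members, basement membrane and fibrillar members, FN1, FBN1, FBN2, the 5 highest by level and the 3 largest folds not called; other members named singly were chosen after their values were seen. Human genes were placed with GENCODE release 29, and upstream sequences are from RefSeq. A mouse annotation was not used here.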

Additional observations from a re-analysis of the deposited data

How the results depend on the processing

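Of the called human members, the 4 remained called with library sizes alone and with a mean of at least 1 CPM. The count rose to 10 with DESeq2 (3 higher, 7 lower) and to 14 without a filter on low counts (6 higher, 8 lower), each including the same 4, and ranged from 0 to 5 with 1 library left out. In those fits 2 libraries stand in 1 group. The matrix list moved from 7 called in human to 15 with DESeq2, 24 without a filter and 2 to 16 with 1 library left out, and all human genes from 932 to 2155 without a filter and 224 to 1440 with 1 library left out. In mouse, members went from 0 to 1 (Nid2) and the matrix list from 0 to 2 without a filter, and all genes from 2 to 30 with DESeq2, 117 without a filter and 0 to 17 with 1 library left out. The cause was not tested, and the human total over all genes with DESeq2 was not set beside these counts. No fold of a named member turned direction while called. Scaling by library sizes shifted the median of all human genes by 0.028 and of mouse genes by -0.009, and changed the sign of 0 members.

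Same-numbered libraries had weak correlations of deviations (0.24, -0.14 and 0.15 in human and 0.19, 0.03 and -0.01 in mouse). With 3 libraries a group, these values cannot show whether the numbers pair the samples. With a replicate block 7 human members were called (1 higher, 6 lower) and 21 mouse genes, none a member. The human total over all genes in that fit is not given here, so the 7 are not a result about the members. Depth limits members under about 1 CPM, where 3 counts equal 0.183 to 0.199 CPM in human and 0.142 to 0.178 in mouse.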
